A study of Homo sapiens with 6 samples.

Results

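The 67 genes described here encode the core splicing factors of human cells: the SR proteins, the heterogeneous nuclear ribonucleoproteins (hnRNPs), the Sm, U1 and U2 snRNP proteins, the SF3A and SF3B complexes, U2AF and the PRPF proteins. They were chosen by name, as the protein-coding genes of the expression table whose RefSeq symbol starts with SRSF, HNRNP, SF3A, SF3B, SNRP, PRPF or U2AF, with a number after SRSF, SF3A, SF3B and PRPF. Of 74 RefSeq symbols that meet this rule, 67 are among the 12486 genes of the table, and HNRNPA1L3, HNRNPCL1, HNRNPCL2, HNRNPCL3, HNRNPCL4, SNRPN and SRSF12 were not analysed here. No expression value entered the choice, although it was made with earlier results of these data known. The 67 genes fall into 11 SR proteins, 21 hnRNPs, 7 Sm core proteins, 10 proteins of U1, U2, SF3A and U2AF, 6 SF3B proteins and 12 PRPF proteins.

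RNA-seq was performed on total RNA of K562 cells, an established human line from chronic myeloid leukemia that carries the Bcr-Abl fusion. All cells stably expressed a short hairpin RNA delivered by lentivirus, directed against luciferase in the 3 control libraries (sh-luc) or against a long noncoding RNA in the 3 knockdown libraries (sh-IUR1). The labels call this RNA lncRNA-up91 and the study calls it lncRNA-IUR1. In each group 1 library carries no replicate number and the others are r1 and r2, and values below are given in the order unnumbered, r1 and r2.

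The level of a gene is its FPKM, fragment density scaled to transcript length and library size. Levels can be compared between genes only as far as the transcript length used fits each gene. A difference between groups is given on the scale of log2(FPKM + 1), sh-IUR1 minus sh-luc, with its standard error (SE), and it slightly understates the change of genes with a low FPKM. All 67 genes had a mean above 1 FPKM and passed the filter for the test. The listed FPKM summed to between 579820 and 606240 per library, which is not a sequencing depth, and depth is unknown. Between pairs of libraries Pearson's r of the log2 values over genes was 0.9903 to 0.9984. All 15 K562 marker genes were present, with GATA1 at 182 to 200.4 FPKM and HBG2 at 2559 to 3565 FPKM. Of the markers of other cell types, CD3D was at 3.51 to 4.96, CD79A at no more than 0.23 and COL1A1 at no more than 0.37 FPKM, while LYZ stood at 107 to 118.7 and EPCAM at 37.9 to 47.6 FPKM in all libraries. The level of the targeted RNA was not analysed here, and no check of the knockdown was made. The libraries come from independent groups of cells of a single line, and the p-values measure the spread between these cultures.

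Introns are removed by the spliceosome, which is built on each transcript from snRNPs, particles of a small nuclear RNA and proteins. U1 binds the donor site, U2AF and U2 with SF3A and SF3B define the acceptor site and the branch point, and the tri-snRNP with its PRPF proteins then joins to form the active enzyme. SR proteins mostly promote the use of nearby exons and hnRNPs often repress it, so that the balance of these families sets which isoforms a cell makes. Many SR and hnRNP genes control their own level by splicing in an exon that directs the transcript to nonsense-mediated decay (NMD).

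None of the 67 splicing factor genes differed between the groups at an adjusted p under 0.05 (limma, Benjamini-Hochberg over 12276 genes), and neither did any other gene, so that 0.0% of all genes tested were called. The smallest adjusted p was 0.93. Most members nevertheless had a slightly lower mean in lncRNA-IUR1 knockdown K562 cells. In bulk RNA such as this, a smaller number of cells with a transcript and less of it per cell cannot be told apart. The mean log2 value was lower in 55 of 67 members (82.1%), against 42.0% of all genes tested, and the median difference was -0.065, against 0.019 over all genes tested. The 15 K562 marker genes, which are no splicing factors, showed the same tendency, with a lower mean in 13 of 15 (86.7%), a median difference of -0.064 and 0 genes past the test. Differences of the members ranged from -0.25 for SRSF2 to 0.16 for PRPF40B. All 11 SR genes and all 7 Sm core genes had a lower mean, with median differences of -0.11 and -0.13, whereas the medians of the remaining groups lay between -0.063 and -0.03. Among the hnRNPs 17 of 21 had a lower mean, and the same held for 7 of 10 genes of U1, U2, SF3A and U2AF, 4 of 6 SF3B genes and 9 of 12 PRPF genes.

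At an unadjusted p under 0.05 (limma), 2 members were lower, SRSF7 and SNRPF, where 0.994% of all genes tested were lower at this level, and 0 members were higher, where 1.65% of all genes were. Every sh-IUR1 library lay below every sh-luc library for 3 members, SRSF8, SRSF9 and SNRPD2, where 3.03% of all genes showed this order, and 0 members showed the opposite order, where 4.04% of all genes did. The members are highly expressed, with a median level of 87.5 FPKM against 10.6 FPKM over all genes tested. Of 2018 other genes expressed at 44.9 FPKM or more, 26 were lower and 4 higher at an unadjusted p under 0.05 (limma). The groups were apart for 112 of them in the lower and 24 in the higher direction. Highly expressed genes thus leaned the same way, and the lack of higher members does not set the members apart from them. With 67 members, counts of 2 and 3 are too few to set the members apart from all genes. Over all genes tested, 122 were lower and 203 higher at an unadjusted p under 0.05, and the split became 178 and 134 after quantile normalization and 258 and 199 after correcting for transcript GC content and length. An unmoderated linear model, which takes the spread of each gene alone, also gave 2 members, but these were SRSF8 (unadjusted p = 0.00246) and SRSF9 (unadjusted p = 0.00529), while SRSF7 and SNRPF had an unadjusted p of 0.148 and 0.115 in this linear model, and 0 genes had an adjusted p under 0.05. The limma count of 2 members became 0 without the unnumbered sh-luc library, 0 without the unnumbered sh-IUR1 library and 1 without sh-IUR1 r1, where 0.635%, 0.489% and 0.855% of all genes were lower at this level. It became 8, all lower, without sh-luc r1, where 2.1% of all genes were lower and 4.87% higher. Without sh-IUR1 r2 it was 7, 6 lower and 1 higher, where 1.92% of all genes were lower and 3.87% higher. The median difference of the 67 members was -0.039 without the unnumbered sh-luc library, -0.037 without sh-IUR1 r1 and -0.10 without sh-IUR1 r2.

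**Figure D1:**
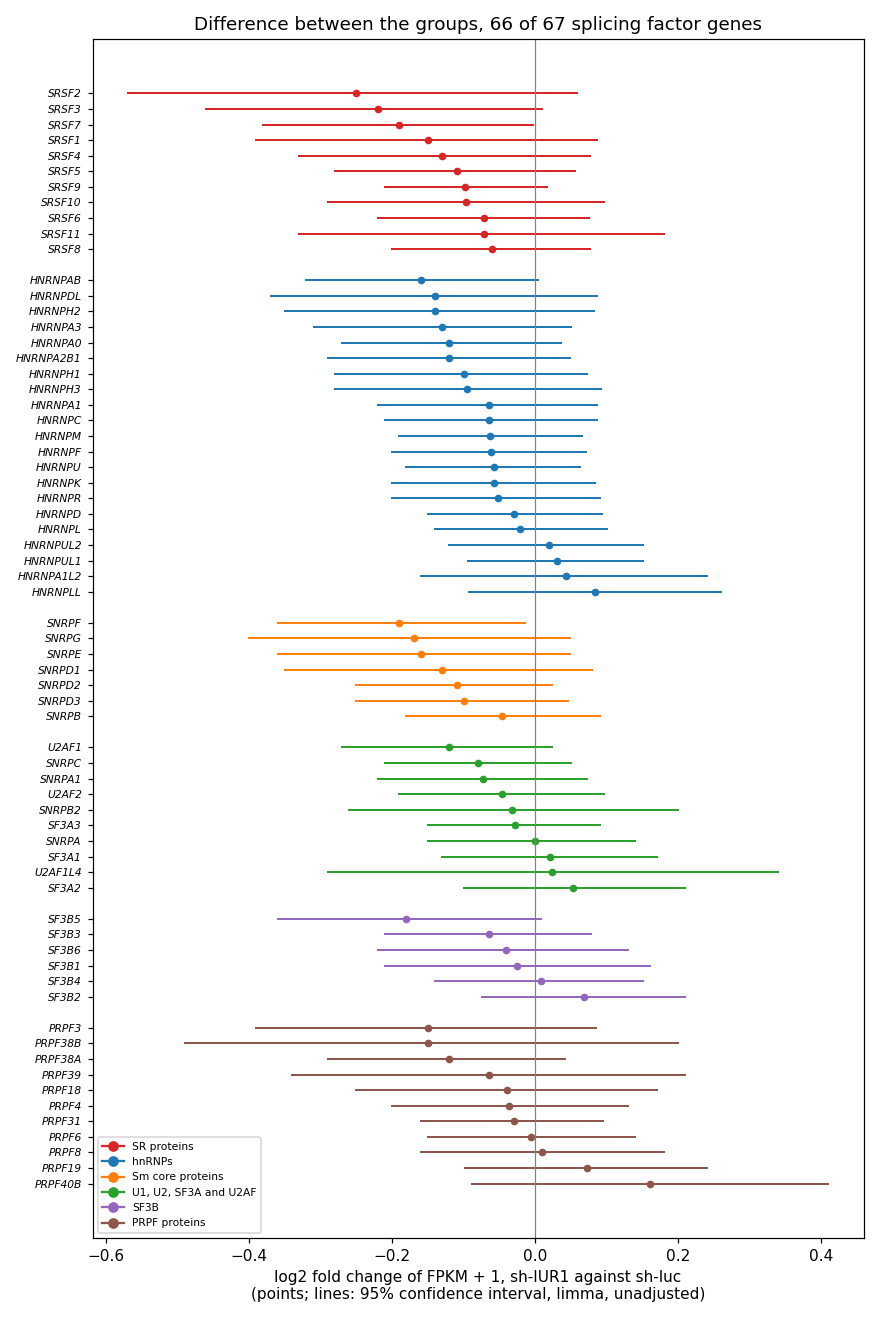
Difference between the groups for 66 of the 67 genes (horizontal axis, log2 of FPKM + 1, sh-IUR1 minus sh-luc; points, estimate; lines, unadjusted 95% confidence interval from limma), in role groups and sorted within each. All 11 SR and all 7 Sm core genes lie left of 0, and only the intervals of SRSF7 and SNRPF do not include 0.

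The sh-luc libraries differed from each other. For 65 of the 67 members the range over the 3 sh-luc libraries was larger than the difference between the group means. The exceptions were SRSF8 and SRSF9. A range of single libraries is a wider measure than a difference of means: SNRPD2 is among the 65 although its groups did not overlap. The share of all genes with such a range was not computed. Taken as deviations from the mean of each gene over the 6 libraries, the median of the 67 members was 0.13, -0.018 and 0.012 in the sh-luc libraries and -0.035, -0.10 and 0.017 in the sh-IUR1 libraries. The unnumbered sh-luc library was thus the high end and sh-IUR1 r1 the low end, with the other four between them. The median deviation of the 15 K562 marker genes was 0.14, -0.089 and 0.05 in the sh-luc libraries. In the sh-IUR1 libraries it was -0.072, -0.042 and 0.016. These genes shared the high end with the members, but their low end was a control, sh-luc r1.

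The unnumbered sh-luc library held the highest value of 43 members (64.2%), against 24.1% of all genes tested. The lowest value of 42 members (62.7%) was in sh-IUR1 r1, against 22.3% of all genes tested. Both applied to 36 members (53.7%), and to 12.9% of all genes tested. The summed FPKM of the 67 genes was 10034, 9044 and 9241 in the controls and 8897, 8596 and 9217 in the knockdown libraries, which is 1.66%, 1.54%, 1.58%, 1.52%, 1.44% and 1.59% of the listed FPKM. The sums of sh-luc r2 and sh-IUR1 r2 were nearly equal, and the groups overlapped.

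**Figure D2:**
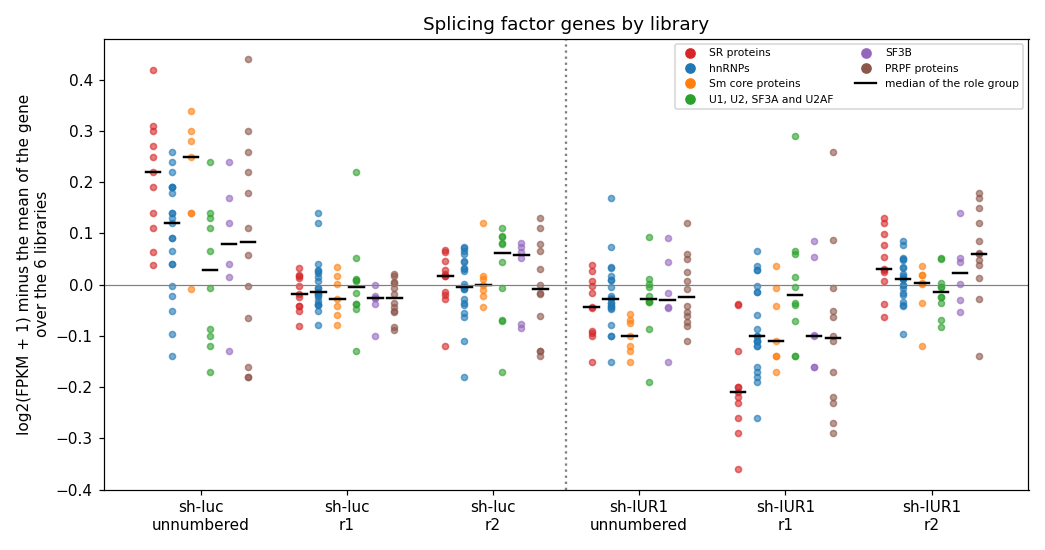
Deviation of each of the 67 genes from its own mean over the 6 libraries (vertical axis, log2 of FPKM + 1), by library and role group, with the median of each role group as a bar. The SR genes have their highest median, 0.22, in the unnumbered sh-luc library and their lowest, -0.21, in sh-IUR1 r1, while the 2 r2 libraries lie close to 0.

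The unnumbered sh-luc library also stood apart in the genes of the integrated stress response. The transcription factor ATF4 drives this programme when amino acids run short or proteins misfold. The list was drawn up knowing that these genes set this library apart, so its values describe that difference and are no independent finding. The mean log2 level of 23 such genes in the sh-luc libraries was 5.13, 6.13 and 5.95, and in the sh-IUR1 libraries it was 6.16, 6.29 and 5.84. The unnumbered sh-luc library was far below the others, and sh-IUR1 r1 was the highest but close to sh-IUR1 unnumbered and sh-luc r1. These ends are the reverse of those of the SR genes. The values of sh-luc r1 and r2 lay inside the range of the sh-IUR1 libraries. All 23 stress genes had a higher mean in sh-IUR1, where 7119 of 12276 genes tested did. Their median difference was 0.34, and 0 of them had an adjusted p under 0.05 (limma). The part of this library difference in the values of the splicing factors was not tested.

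The SR proteins carry an RNA recognition motif and a tail rich in arginine and serine, bind exonic enhancers and recruit U1 and U2AF to the neighbouring splice sites. In lncRNA-IUR1 knockdown K562 cells all 11 had a lower mean, with differences from -0.25 to -0.06, and 0 passed the test. Mean levels over the 6 libraries ran from 184.5 FPKM for SRSF2 through 159 for SRSF7, 158 for SRSF9, 133 for SRSF5, 88.2 for SRSF1, 87.5 for SRSF3, 61.4 for SRSF4, 56.1 for both SRSF6 and SRSF11 and 39.6 for SRSF10 to 18.8 FPKM for SRSF8. Neighbours in this order had overlapping ranges over the 6 libraries, apart from SRSF9 over SRSF5, SRSF5 over SRSF1, SRSF11 over SRSF10 and SRSF10 over SRSF8.

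SRSF2, also known as SC35 (chr17:76734115-76737411, minus strand, GRCh38), had the largest difference of the 67 genes. Its level was 243, 172 and 188 FPKM in sh-luc and 164, 141 and 199 FPKM in sh-IUR1. The unnumbered sh-luc library was far above the others and sh-IUR1 r1 below them, and the second highest value was in a knockdown library, so the groups overlapped. The means were 200.9 ± 37.2 and 168 ± 29.0 FPKM (SD, n = 3 each), a log2 difference of -0.25 (SE 0.14, unadjusted p = 0.101, adjusted p = 0.93, limma). When 1 library was left out, the difference ran from -0.38 to -0.11.

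SRSF3, the smallest SR protein, which also serves in the export of mRNA (chr6:36594362-36605600, plus strand), was at 107.8, 86.6 and 88.5 FPKM in sh-luc and at 81.2, 70.6 and 90.1 FPKM in sh-IUR1. It had the same order of libraries as SRSF2, with sh-IUR1 r2 above the pair of lower controls. The log2 difference was -0.22 (SE 0.10, unadjusted p = 0.0577, adjusted p = 0.93, limma).

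SRSF7, a zinc knuckle SR protein that likewise hands mRNA to the export machinery (chr2:38743599-38751494, minus strand), was at 188, 156 and 165 FPKM in sh-luc and at 147, 136 and 161 FPKM in sh-IUR1. The r2 library of the knockdown exceeded r1 of the control, and the other knockdown libraries were below all controls. The means were 169.7 ± 16.7 and 148 ± 12.8 FPKM (SD, n = 3 each), a log2 difference of -0.19 (SE 0.085, unadjusted p = 0.0467, adjusted p = 0.93, limma). An exact permutation test gave p = 0.2, where 3 against 3 libraries cannot give less than 0.1.

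The 150 bases before the RefSeq start of both genes are printed here, since SRSF3 and SRSF7 show the SR pattern and their promoters carry different elements. They are from GRCh38.p14, SRSF3 from chr6:36594212-36594361 on the plus strand and SRSF7 from chr2:38751495-38751644 on the minus strand. Capitals mark the CCAAT box, the TATA box with the letters TATAAA and the GC box with the letters GGGCGG, each on either strand, so that a match on the other strand appears as its reverse complement.
SRSF3: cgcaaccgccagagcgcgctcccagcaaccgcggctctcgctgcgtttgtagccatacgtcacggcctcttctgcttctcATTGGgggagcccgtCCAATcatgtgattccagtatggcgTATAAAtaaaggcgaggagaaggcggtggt
SRSF7: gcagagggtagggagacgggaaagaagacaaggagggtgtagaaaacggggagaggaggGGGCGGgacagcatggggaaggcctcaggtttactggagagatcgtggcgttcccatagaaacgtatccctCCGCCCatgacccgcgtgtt
SRSF3 has CCAAT boxes that begin 70 and 55 bases before the start and a TATA box at 30 bases, whereas SRSF7 has GC boxes at 91 and 20 bases and neither of the other elements in this window.

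SRSF9 (chr12:120461672-120469748, minus strand) was at 165, 159 and 165 FPKM in sh-luc and at 153, 153 and 151 FPKM in sh-IUR1. The groups did not overlap, and the libraries of each lay close together. The difference was -0.098 (SE 0.051, unadjusted p = 0.0836, adjusted p = 0.93, limma; exact permutation p = 0.1, the smallest that 3 against 3 can give). SRSF8, an SRSF2-related gene (chr11:95066877-95071225, plus strand), was at 19.3, 19.2 and 19.04 FPKM in sh-luc and at 18.6, 18.3 and 18.3 FPKM in sh-IUR1. Here too the groups did not overlap, although the difference was only -0.060 (SE 0.062, unadjusted p = 0.353, adjusted p = 0.93, limma). Neither gene followed the order of libraries of SRSF2: when 1 library was left out the difference of SRSF9 stayed between -0.11 and -0.089, and that of SRSF8 between -0.067 and -0.056.

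The remaining SR genes had overlapping groups. SRSF1, the prototype of the family and an oncogene product, was at 107.7, 84.5 and 86.7 FPKM in sh-luc and 84.8, 72.9 and 92.5 FPKM in sh-IUR1, a log2 difference of -0.15 (SE 0.11). SRSF4, a large member of the family, was at 71.3, 59.3 and 61.8 against 57.3, 53.0 and 65.5 FPKM, a difference of -0.13 (SE 0.092). SRSF5 was at 145.9, 133.9 and 134 against 136, 114 and 133 FPKM, a difference of -0.11 (SE 0.076). In SRSF1 and SRSF4 the unnumbered control was the highest, sh-IUR1 r1 the lowest and sh-IUR1 r2 the second highest, while in SRSF5 the second highest value was in the unnumbered knockdown library. SRSF10, which acts as a repressor when it is dephosphorylated during heat shock, was at 45.2, 38.9 and 38.7 against 40.2, 34.2 and 40.2 FPKM (difference -0.097, SE 0.086). SRSF6 was at 60.6, 56.8 and 55.2 against 55.9, 51.1 and 57.0 FPKM (difference -0.072, SE 0.066). SRSF11 was at 67.4, 54.1 and 51.1 against 56.0, 47.3 and 60.5 FPKM (difference -0.072, SE 0.11). In these 3 genes at least 1 knockdown library lay above a pair of controls, and the difference of SRSF11 became 0.045 without the unnumbered sh-luc library and 0.026 without sh-IUR1 r1. Without the unnumbered sh-luc library the median difference of the SR genes was -0.056 with 10 of 11 lower, and without sh-IUR1 r1 it was -0.060 with 10 of 11 lower.

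**Figure D3:**
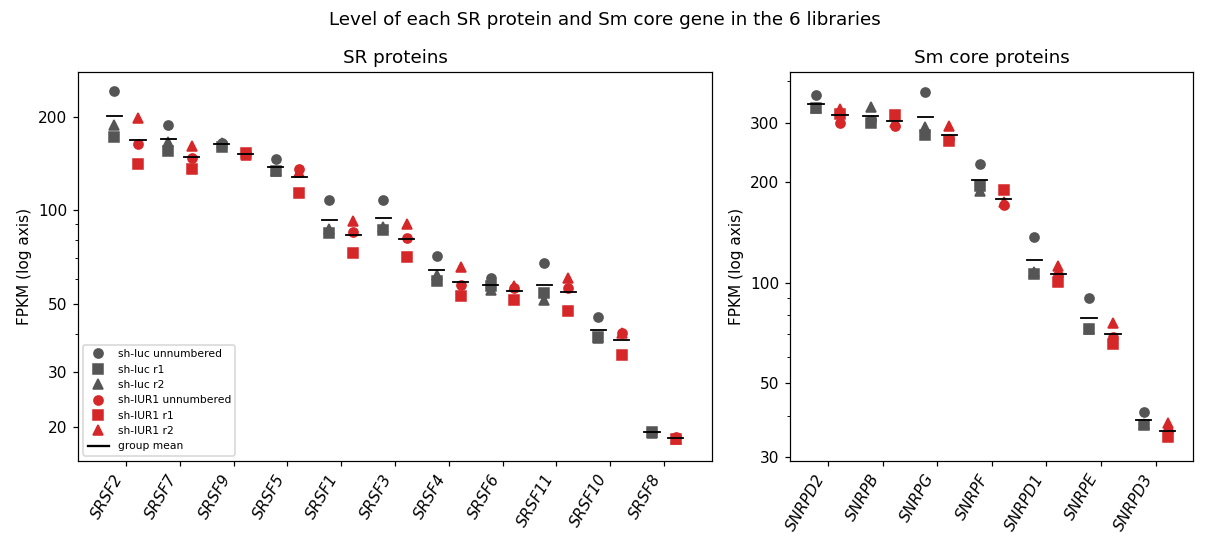
FPKM of the 11 SR genes (left) and the 7 Sm core genes (right) in each library, on a log axis, with sh-luc in grey, sh-IUR1 in red, the library given by the symbol and group means as bars. The unnumbered sh-luc library (grey circle) is the highest in 10 of 11 SR and 6 of 7 Sm genes, and the groups are apart only for SRSF8, SRSF9 and SNRPD2.

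Every SR gene has at least 1 transcript annotated as a target of NMD in GENCODE release 44 (11 of 11), against 58.2% of the 67 members and 39.0% of protein-coding genes. For SRSF7 this holds for 6 of 12 annotated transcripts, for SRSF9 for 5 of 13, and for SRSF2 and SRSF3 for 2 of 11 and 2 of 8. A retained intron is annotated in 9 of 11 SR genes (81.8%), against 48.2% of protein-coding genes. FPKM per gene does not separate such transcripts from the coding ones, and whether they entered the levels above is unknown, since the annotation behind the values is not given in the sources used here. The shares of genes with an NMD target or a retained intron also depend on how many transcripts are annotated. The median is 11 for the SR genes, 10 for the 67 members and 6 for protein-coding genes. The latter were not limited to genes of the expression table.

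The Sm core proteins form the ring that sits on the U1, U2, U4 and U5 snRNAs. All 7 measured genes had a lower mean in sh-IUR1, with differences from -0.19 to -0.046, and 0 passed the test. Mean levels were 329.8 FPKM for SNRPD2, 309.6 for SNRPB, 295 for SNRPG, 190.4 for SNRPF, 111 for SNRPD1, 74.2 for SNRPE and 37.5 for SNRPD3. The proteins are present in equal number in the ring. FPKM divides by a transcript length, and the length used is not given in the sources used here. Canonical GENCODE transcripts of these genes run from 452 bases for SNRPF to 4858 bases for SNRPD1. How far the order of levels depends on length was not tested.

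SNRPF (chr12:95858952-95866140, plus strand) had the smallest p of the 67 genes. It was at 226, 194 and 188 FPKM in sh-luc and at 171, 189 and 174 FPKM in sh-IUR1. The lowest control and the highest knockdown library were nearly equal, so the groups just overlapped. The means were 203 ± 20.4 and 178 ± 9.67 FPKM (SD, n = 3 each), a log2 difference of -0.19 (SE 0.077, unadjusted p = 0.0367, adjusted p = 0.93, limma; exact permutation p = 0.2). SNRPD2 (chr19:45687454-45692316, minus strand) was at 364, 333 and 332 FPKM in sh-luc and at 299.8, 320.1 and 330.0 FPKM in sh-IUR1. Its groups did not overlap, but the margin between sh-luc r2 and sh-IUR1 r2 was narrow. The log2 difference was -0.11 (SE 0.062, unadjusted p = 0.0941, adjusted p = 0.93, limma; exact permutation p = 0.1).

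The promoters of both are printed to set them beside those of SRSF3 and SRSF7, SNRPF from chr12:95858802-95858951 on the plus strand and SNRPD2 from chr19:45692317-45692466 on the minus strand (GRCh38.p14). Capitals mark the CCAAT box and, in SNRPD2, an ETS site with the letters CCGGAAG on the other strand, the element bound by factors such as GABPA.
SNRPF: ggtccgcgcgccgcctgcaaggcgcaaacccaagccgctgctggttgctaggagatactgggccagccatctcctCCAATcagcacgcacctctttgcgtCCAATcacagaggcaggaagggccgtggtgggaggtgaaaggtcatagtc
SNRPD2: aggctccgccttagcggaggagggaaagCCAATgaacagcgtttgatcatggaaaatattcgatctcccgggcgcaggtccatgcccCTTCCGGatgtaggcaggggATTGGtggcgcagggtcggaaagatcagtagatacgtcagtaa
Within the printed bases SNRPF and SNRPD2 hold 2 CCAAT boxes each, as SRSF3 does, while 3 were found for SNRPD2 in the 250 bases searched, and the ETS site of SNRPD2 begins 63 bases before the start.

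In the other Sm genes the unnumbered control was again the highest value, except in SNRPB. SNRPG was at 371, 277 and 293 FPKM in sh-luc and 269, 266 and 293 FPKM in sh-IUR1 (difference -0.17, SE 0.0998). SNRPE was at 90.0, 72.5 and 72.8 against 68.8, 65.6 and 75.8 FPKM (difference -0.16, SE 0.092). SNRPD1 was at 137, 106 and 107 against 105, 100.3 and 112 FPKM (difference -0.13, SE 0.095). In these 3 genes sh-IUR1 r2 exceeded the pair of lower controls. SNRPD3, the least expressed, was at 41.2, 37.4 and 37.9 against 35.9, 34.5 and 37.9 FPKM (difference -0.10, SE 0.066). SNRPB, which encodes a pair of Sm isoforms and shares sequence with SNRPN, was at 308, 300.6 and 336 against 295, 317 and 302 FPKM (difference -0.046, SE 0.061). Its difference was 0.0017 without sh-luc r2, the control library with the highest value. The median difference of the 7 genes was -0.060 without the unnumbered sh-luc library, with all 7 still lower.

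The hnRNPs coat nascent transcripts, and their genes included the highest level of all members. HNRNPA1, a repressor of exon inclusion (chr12:54280726-54287087, plus strand), was at 1478, 1362 and 1283 FPKM in sh-luc and at 1338, 1247 and 1353 FPKM in sh-IUR1. The groups overlapped, with sh-IUR1 r2 above sh-luc r2. The difference was -0.065 (SE 0.067, unadjusted p = 0.36, adjusted p = 0.93, limma) and 0.0015 after quantile normalization. HNRNPA1L2, a copy of HNRNPA1 without introns and the least expressed hnRNP, was at 7.15, 7.86 and 6.22 FPKM in sh-luc and at 7.37, 7.33 and 7.17 FPKM in sh-IUR1, a difference of 0.043 (SE 0.090). The sh-luc libraries enclosed all sh-IUR1 values. These genes are near-identical in sequence, and how shared reads were divided is not given in the sources used here.

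Of the other hnRNPs, 16 of 19 had a lower mean, with differences from -0.16 to 0.083, and none passed the test. HNRNPAB had the largest difference, -0.16 (SE 0.072), with 241, 199 and 216 FPKM in sh-luc and 192, 193 and 202 FPKM in sh-IUR1, so that the highest knockdown value overlapped the lowest control. HNRNPA2B1, a reader of sorting motifs in RNA, was at 495, 431 and 432 against 411, 388 and 449.6 FPKM, a difference of -0.12 (SE 0.076). Of its 49 annotated transcripts, 35 are NMD targets. HNRNPDL was at 87.8, 71.0 and 72.6 against 70.9, 60.9 and 77.6 FPKM, a difference of -0.14 (SE 0.10). These 3 were chosen after their values were seen, and in the last 2 the knockdown library r2 was above the pair of lower controls.

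The differences of HNRNPH2, HNRNPA3, HNRNPA0, HNRNPH1 and HNRNPH3 lay between -0.14 and -0.096. HNRNPC, which binds uridine tracts and keeps cryptic exons out of mRNA, had a mean of 323 ± 24.7 FPKM in sh-luc and 308 ± 12.8 FPKM in sh-IUR1 (SD, n = 3 each). HNRNPK, a binder of cytosine-rich RNA, had 252.5 ± 13.8 and 243 ± 11.9 FPKM. HNRNPU, a scaffold protein of chromatin, had 126 ± 3.35 and 121 ± 2.48 FPKM. In HNRNPM, HNRNPF, HNRNPU, HNRNPK, HNRNPR, HNRNPD and HNRNPL the differences lay between -0.063 and -0.021. HNRNPUL2, HNRNPUL1 and HNRNPLL had a higher mean in sh-IUR1, with differences of 0.019, 0.030 and 0.083. The median difference of the 21 hnRNPs was -0.037 without the unnumbered sh-luc library, and also without sh-IUR1 r1, and -0.096 without sh-IUR1 r2, with 17 of 21 lower each time.

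The genes of the proteins that first read the splice sites had a median SD over libraries of 0.075 on the log2 scale. It was 0.15 for the SR, 0.14 for the Sm, 0.109 for the PRPF, 0.0928 for the SF3B and 0.0867 for the hnRNP genes. Over all genes tested the median SD was 0.0979. Among 2018 genes that are no members, with a mean of at least 44.9 FPKM, it was 0.0777. In the unnumbered sh-luc library the median deviation of the 10 genes of U1, U2, SF3A and U2AF was 0.029, against 0.22 for the SR and 0.25 for the Sm genes. U2AF1, the small U2AF subunit that contacts the AG of the acceptor site (chr21:43092956-43107578, minus strand), had the highest level of these 10 genes, with 328, 288 and 318 FPKM in sh-luc and 293, 271 and 293 FPKM in sh-IUR1. The groups overlapped at sh-luc r1. The difference was -0.12 (SE 0.065, unadjusted p = 0.0914, adjusted p = 0.93, limma), and the near-identical copy U2AF1L5 makes its level uncertain. U2AF1L4, a paralog of U2AF1, was the lowest at 5.50, 7.05 and 5.13 FPKM in sh-luc and 5.06, 7.45 and 5.58 FPKM in sh-IUR1. Both r1 libraries were high, and the difference of 0.024 (SE 0.14) ran from -0.12 to 0.14 when 1 library was left out.

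U2AF2, which binds the polypyrimidine tract, had a mean of 93.5 ± 5.35 FPKM in sh-luc and 90.4 ± 4.39 FPKM in sh-IUR1 (SD, n = 3 each). SNRPA and SNRPC, the U1 proteins, had 126 ± 8.63 and 303 ± 16.0 FPKM in sh-luc and 125.9 ± 5.06 and 286.5 ± 7.72 FPKM in sh-IUR1. SNRPA1 and SNRPB2, proteins of U2, had differences of -0.073 and -0.032. SF3A1, SF3A2 and SF3A3, the subunits of the SF3A complex, had differences of 0.021, 0.053 and -0.028. The median of the 10 genes was -0.054 without sh-luc r1, -0.047 without sh-luc r2 and -0.050 after median-ratio scaling, where -0.030 was found with all libraries as deposited.

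SF3B1, the largest subunit of the complex that clamps the branch point and a gene often mutated in myelodysplasia (chr2:197389784-197435093, minus strand), was at 55.2, 50.9 and 48.2 FPKM in sh-luc and 50.3, 45.5 and 56.0 FPKM in sh-IUR1. The knockdown libraries held both the highest and the lowest value. The difference was -0.026 (SE 0.084), and it became 0.026 without the unnumbered sh-luc library and 0.047 without sh-IUR1 r1. SF3B5, a small subunit of the same complex (chr6:144094884-144095573, minus strand), was at 262, 216 and 232 FPKM in sh-luc and 200.2, 198 and 228 FPKM in sh-IUR1. Only sh-IUR1 r2 reached into the control range, and the difference was -0.18 (SE 0.083, unadjusted p = 0.0592, adjusted p = 0.93, limma). SF3B3, SF3B6, SF3B4 and SF3B2 had differences of -0.065, -0.041, 0.0080 and 0.068, and the median of the 6 SF3B genes was 0.019 without the unnumbered sh-luc library and -0.010 without sh-IUR1 r1, against -0.034 with all libraries.

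The PRPF proteins act in the tri-snRNP, in the complex that activates the spliceosome and with U1. PRPF19, the ubiquitin ligase of the activating complex (chr11:60890547-60906585, minus strand), had the highest level, with 117, 129 and 144 FPKM in sh-luc and 138, 141 and 130.6 FPKM in sh-IUR1. All knockdown values lay inside the control range, and the difference was 0.073 (SE 0.077). PRPF40B, a U1-associated protein and the lowest member of all (chr12:49622646-49644665, plus strand), was at 2.25, 2.69 and 2.53 FPKM in sh-luc and 3.0, 3.41 and 2.34 FPKM in sh-IUR1. A pair of knockdown libraries was above all controls, and sh-IUR1 r2 was below all but 1 of them. The difference of 0.16 was the highest of the 67 genes (SE 0.11, unadjusted p = 0.183, adjusted p = 0.93, limma).

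PRPF38B was among the 5 members with the widest spread over the 6 libraries. The gene (chr1:108692310-108702928, plus strand) was at 33.8, 23.1 and 22.3 FPKM in sh-luc and 23.2, 19.95 and 27.3 FPKM in sh-IUR1. The unnumbered control was the highest and sh-IUR1 r2 the second highest. The difference of -0.15 (SE 0.16) became 0.037 without the unnumbered sh-luc library.

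Of the 5 tri-snRNP proteins, 4 had a difference between -0.036 and 0.0089. PRPF8, the scaffold of the catalytic centre, had a mean of 80.9 ± 8.23 FPKM in sh-luc and 81.2 ± 2.97 FPKM in sh-IUR1 (SD, n = 3 each). PRPF6, PRPF31 and PRPF4 had differences of -0.0059, -0.030 and -0.036, and PRPF3 had -0.15 (SE 0.11). PRPF38A, PRPF39 and PRPF18 had differences of -0.12, -0.065 and -0.040. The median of the 12 PRPF genes was -0.033 with all libraries, -0.0070 without the unnumbered sh-luc library, 0.020 without sh-IUR1 r1, -0.099 without sh-IUR1 r2 and -0.066 without sh-luc r1.

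The splicing factor genes that lie outside the naming rule were counted as a list of 81 genes, all of them tested, among them further snRNP proteins, helicases, exon junction proteins, SR kinases, LSM proteins and regulators such as PTBP1 and TARDBP. The mean was lower in sh-IUR1 in 50 of 81 (61.7%), with a median difference of -0.020. None had an adjusted p under 0.05 and 0 had an unadjusted p under 0.05 (limma), and the groups did not overlap for 2 lower and 1 higher gene. Their median deviation was 0.045 in the unnumbered sh-luc library and -0.050 in sh-IUR1 r1, the same ends as for the members at a smaller size. Among 2018 genes that are no members, with a mean of at least 44.9 FPKM, the lower quartile of the members, 59.5% had a lower mean in sh-IUR1 and the median difference was -0.018.

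Transcripts of the 67 genes were poorer in G and C than those of other genes, with a median GC content of 45.1% in the canonical GENCODE transcript against 49.0% over all genes tested, and of 40.0% for the SR genes. Across the 67 genes, GC content and the deviation of a gene in a library had a Pearson's r of -0.61 in the unnumbered sh-luc library, 0.55 in sh-luc r2 and 0.60 in sh-IUR1 r1. Over 11923 genes with a GC value the same quantities were -0.29, 0.38 and 0.35. The genes of a library share its depth and preparation and are not independent, and the values describe these libraries only. Of the 23 members with the lowest GC content (35.1% to 41.0%), 22 had a lower mean in sh-IUR1, with a median of -0.096. Among the 21 in the middle 20 had a lower mean, with a median of -0.073, and among the 23 with the highest GC content 13 did, with a median of -0.0060. In the same GC ranges 45.2%, 47.9% and 36.3% of all genes tested had a lower mean. Within the 11 SR genes r was -0.13 in the unnumbered sh-luc library, 0.51 in sh-luc r2 and 0.23 in sh-IUR1 r1.

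After the libraries were corrected for transcript GC content and length, a step chosen after the data were seen, 60 of 67 members had a lower mean and the median difference was -0.081, against -0.0060 over all genes, with -0.13 for the SR genes. At an unadjusted p under 0.05 there were then 8 members, all lower, where 2.16% of 11923 genes were lower, and 0 at an adjusted p under 0.05, the smallest of which was 0.823 (limma).

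A RefSeq promoter was found for 60 of the 67 members, and the 250 bases before the start were searched on both strands. None of the motifs contains another. The ETS site CCGGAAG was in 21 members (35.0%), against 8.82% of 27305 promoters, with 7 of 10 in U1, U2, SF3A and U2AF, 4 of 6 in the Sm core, 3 of 5 in SF3B, 3 of 20 in the hnRNPs and 2 of 10 in the SR genes. The CCAAT box was in 26 members (43.3%), against 33.0% of all promoters, from 6 of 9 PRPF genes (66.7%) and 13 of 20 hnRNPs (65.0%) to 2 of 10 SR genes (20%). The GC box GGGCGG was in 35 members (58.3%), against 42.3% of all promoters, from 16 of 20 hnRNPs (80.0%) to 3 of 10 SR genes (30%). The TATA box TATAAA was in 6 of 60 members (10%), one of them SRSF3, against 11.1%, and the E box CACGTG in 7 (11.7%), of which 6 are hnRNPs, against 6.49%. The site TGACGTCA was in 0 members, against 1.77%, and the YY1 site ATGGCGG was in 3 (5.0%), against 2.83%. A match is a run of letters in the window and no evidence of binding. The 27305 promoters were not filtered for protein-coding genes or for genes of the expression table. A higher share in the members is thus not shown to be particular to splicing factors.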

How the data were processed

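The deposited table gives FPKM per gene and library in K562 cells. According to their methods, the authors trimmed and masked the reads, mapped them to hg38 and computed RPKM with SAMtools 0.1.19, while the deposited columns are headed FPKM. The aligner, the annotation and the use of strand are not given in the sources used here. The authors also deposited a score (the scaled value of each gene), a cluster number and a fraction (cluster membership), which were not used in any test. Genes with an SD of FPKM under 0.05 are not listed, and depth could not be recovered from the steps of low values, so no count model was used.

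Symbols and coordinates came from RefSeq GRCh38.p14 (12363 of 12486 genes matched), and GC content, length and transcript classes from GENCODE release 44. For 12276 genes (mean FPKM of 0.1 or more), log2(FPKM + 1) was compared with limma 3.58.1 (R 4.3.3; lmFit, eBayes with trend, two-sided), with Benjamini-Hochberg adjustment over all of them. Single genes were also compared by a two-sided exact permutation test over libraries. This fit was first tested on simulated data. Python 3.11.15, pandas 2.3.3 and scipy 1.17.1 were used for the other steps.

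Genes with values were named by a rule: the highest and lowest level in each role group, an unadjusted p under 0.05, the 5 per direction without overlap between groups, and the 5 with the largest SD of log2 values. The remaining SR and Sm core genes were added for completeness, and some items are not reported here. The members, lists and rule were chosen with earlier results of these data known. The alternatives were quantile normalization, median-ratio scaling, a filter at 1 FPKM or none, a pseudocount of 0.1, an unmoderated linear model, eBayes with no trend, leaving out 1 library at a time, and the replicate label as a block. A loess correction (span 0.5) for transcript GC content and length was added after the data were seen.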

Additional observations from a re-analysis of the deposited data

How the results depend on the processing

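Over the 15 alternatives, 0 members and 0 genes had an adjusted p under 0.05. The median difference of the members stayed negative, between -0.10 and -0.037. The count of 2 members at an unadjusted p under 0.05 became 1 after quantile normalization, 0 with eBayes without a trend and 8 with the GC and length correction. In these settings 1.45%, 0.847% and 2.16% of all genes tested were lower at this level, and 1.09%, 1.94% and 1.67% higher. With each library left out the count ran from 0 to 8, where 0.489% to 2.1% of all genes were lower and 0.798% to 4.87% higher. Of 405 log2 differences of 27 genes, 392 kept their direction and 13 did not. Quantile normalization gave -0.0030 for HNRNPA1L2, -0.026 for U2AF1L4 and 0.0015 for HNRNPA1. With each library left out in turn, differences ran from -0.036 to 0.11 for HNRNPA1L2, -0.12 to 0.14 for U2AF1L4, -0.078 to 0.0017 for SNRPB, -0.10 to 0.047 for SF3B1, -0.26 to 0.037 for PRPF38B and -0.15 to 0.045 for SRSF11. The cause was not tested. Over all genes, 325 had an unadjusted p under 0.05, and 158 to 856 with a library left out. The replicate label as a block gave 6 members at this level, all lower, and 533 genes in either direction. Of all genes, 1.45% were lower and 2.89% higher in this setting, and 0 had an adjusted p under 0.05. The correlation of same-labelled deviations was 0.044 for the unnumbered libraries, 0.39 for r1 and -0.34 for r2, so the labels were not taken to pair the libraries. With depth unknown, counting error of the genes with a low FPKM, such as PRPF40B, could not be given.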
